A study of Mus musculus with 16 samples.

Results

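The 8 filtered-air libraries of a 16-library array series are described here: 4 titled GFP- and 4 titled GFP+, taken as pairs by their replicate number. That a number stands for 1 pool of 3 mice is inferred from the 24 mice in the study and the 16 libraries, and is not spelled out in the labels. They were chosen by the treatment and the gate in their titles, and the measure is the difference of the deposited log2 level within a pool, titled GFP- minus titled GFP+, over all 19505 named genes. The mice were C57BL/6 animals of both sexes, 7 to 12 weeks old, carrying an S100a5-tauGFP reporter, in which a fluorescent protein is tied to expression of S100a5. They stayed singly for 40 hours in chambers with clean air flowing at 3.1 L/min, and from hour 26 onwards the animals described here received 10-second pulses of filtered air, the vehicle, every 20 minutes. The remaining 8 libraries came from mice pulsed with the odorant bourgeonal in the same design. Cells of the olfactory mucosa were separated and sorted on their fluorescence, and 50 to 100 ng of total RNA per library was labelled for Clariom S arrays. The reporter and the sort were common to all libraries, so no sample of unsorted mucosa or of mice without the transgene enters the comparison.

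The main olfactory epithelium holds mature olfactory sensory neurons, each of which expresses a single odorant receptor, together with immature neurons, basal progenitors, sustentacular supporting cells, microvillar cells and gland cells. Odor and spontaneous activity, signalled through a cyclic AMP cascade, raise the calcium-binding protein S100a5 and the adhesion molecule Kirrel2 in the mature neuron, and lower the adhesion molecule Kirrel3. In air without odor the level of S100a5 therefore differs among neurons with the basal activity of the receptor they carry. Immediate early genes such as Fos respond within minutes to many stimuli in many cell types. Neutrophils, which contain granule proteins such as Lcn2, are blood and tissue leukocytes.

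The titles and the cell type field of these libraries contradict each other: every library titled GFP- is entered as GFP+ in the cell type field, and the reverse. The titles are followed throughout, and directions are those of the libraries as titled. S100a5, the gene that drives the reporter, had levels of 15.69, 16.17, 16.63 and 15.89 in the libraries titled GFP- of pools 1 to 4, and of 14.84, 15.53, 15.46 and 14.75 in those titled GFP+. Every pool had more S100a5 in its library titled GFP-, and the lowest of these lay above the highest library titled GFP+. The mean difference was 0.95 ± 0.25 (SD, n = 4 pools), or 1.94-fold (limma adjusted p = 0.000822). An exact two-sided sign-flip test over 4 pools cannot reach 0.05, and here as for Fos and Lcn2 it gave the smallest p it allows. Because the sort read the reporter, S100a5 is a check of the labels and not an independent result, and the measured direction goes with the cell type field and against the titles. When the libraries were scaled on their poly-A spike-ins, the difference was 0.59 (adjusted p = 0.0533; adjusted p values over the 12 alternatives ran from 1.84e-06 to 0.0533).

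The 4 pools gave like differences, and the libraries of a pool could be tied to each other by a gene of the Y chromosome. Eif2s3y, a Y-linked translation factor gene, had levels of 8.94, 10.48, 11.14 and 3.65 in the libraries titled GFP- of pools 1 to 4 and of 8.92, 10.38, 11.11 and 2.92 in those titled GFP+. Both libraries of pool 4 lay below background and both libraries of the other pools well above it. Pearson correlations of the gate difference between pools were 0.775 to 0.835 over all genes, which are not independent replicates. Levels of named genes had medians of 5.94 to 5.98 in the libraries titled GFP- and of 6.28 to 6.36 in those titled GFP+. A guide to background, the 95th percentile of 319 vomeronasal receptor genes, which this epithelium hardly uses, reached 4.97 in libraries titled GFP- and 4.64 in those titled GFP+. The poly-A spike-ins dap, lys, phe and thr read higher in libraries titled GFP- by 0.43, 0.38, 0.48 and 0.15. The hybridisation controls bioC, bioD and cre differed by 0.06, 0.01 and -0.06, and bioB by 0.20. The part of these offsets in the results was not tested.

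**Figure D1:**
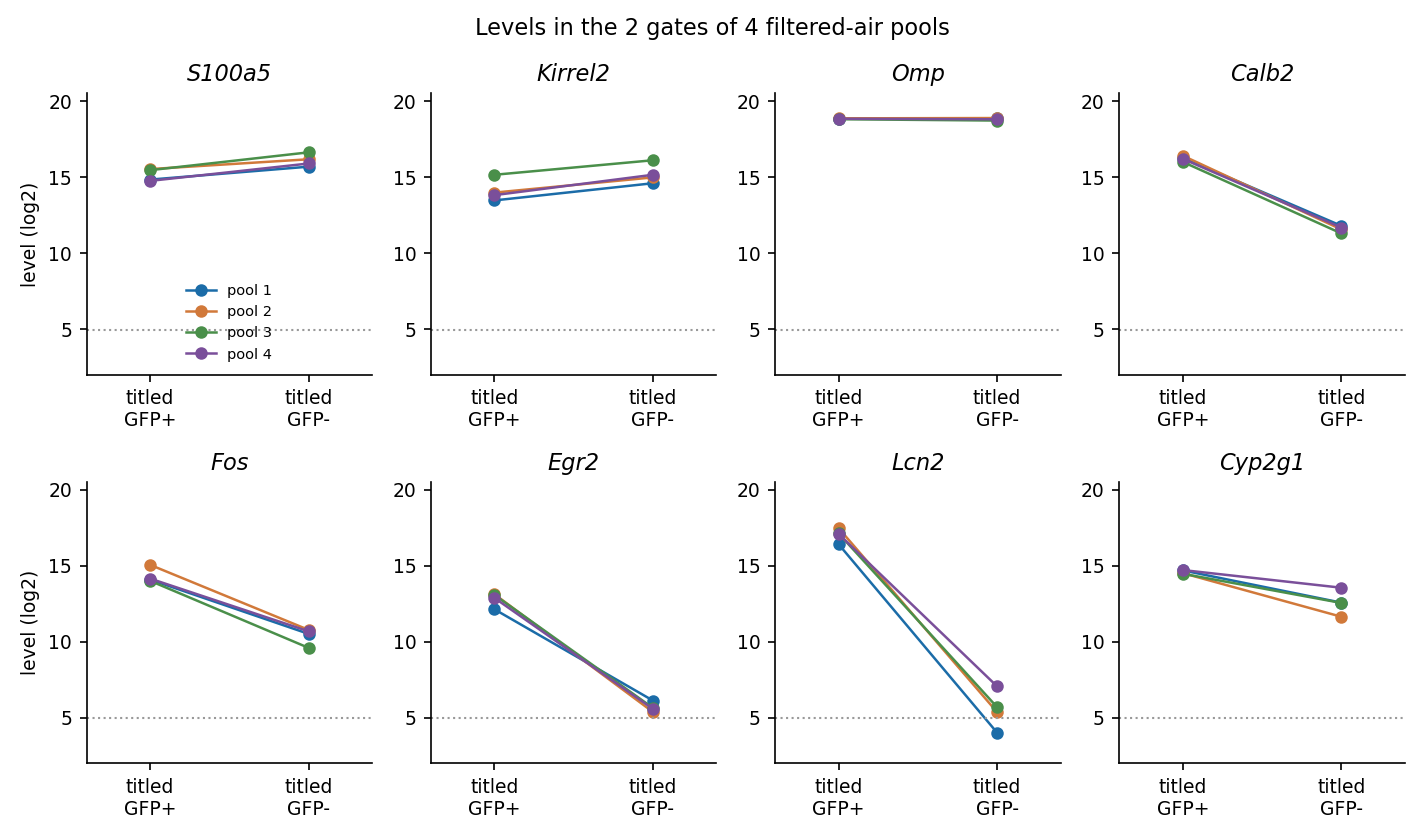
Deposited log2 level (vertical axis) of 8 genes in the library titled GFP+ and the library titled GFP- of each filtered-air pool, with a line joining the libraries of a pool and a dotted line at the background guide of 4.97. S100a5 and Kirrel2 rise towards the library titled GFP- in every pool, Omp lies level at about 18.8, and Calb2, Fos, Egr2, Lcn2 and Cyp2g1 fall in every pool.

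Over the whole array, 3156 of 19505 genes (16.2%) differed between the gates past an adjusted p of 0.05 (limma with the pool as a block and Benjamini-Hochberg adjustment over all genes). Of these, 1216 (6.23% of all genes) were higher and 1940 (9.95%) were lower in libraries titled GFP-. The falls were larger: 1299 lower genes and 403 higher genes passed a 2-fold difference, and 222 lower but 14 higher genes passed a log2 difference of 4. All 14 of those higher genes were odorant receptors, as were 79 of the 222 lower ones. The direction was the same in 4 of 4 pools for 3104 of the genes called (98.4%), and the gates did not overlap for 2618 of them (83.0%). Over all genes the direction was the same in 4 of 4 pools for 6935 (35.6%), and the gates did not overlap for 3576 (18.3%). The genes were called on these same pools, so their higher shares follow in part from the calling and are no separate support. Mean levels lay below background in both gates for 7154 genes (36.7%). With these dim genes left out, 1240 of 12351 genes were higher (10.0%) and 1828 lower. The shares of all genes set beside the lists below include the dim genes. The balance of rises and falls depended on the scaling, since the median difference over all genes was 0.09 as deposited, 0.44 with each library centred on its median, 0.11 after quantile normalization and -0.27 when scaled on the poly-A spike-ins. The share of called genes that were higher was accordingly 38.5%, 87.3%, 53.7% and 10.8%. In a bulk library, fewer cells of a type and less RNA per cell cannot be told apart.

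**Figure D2:**
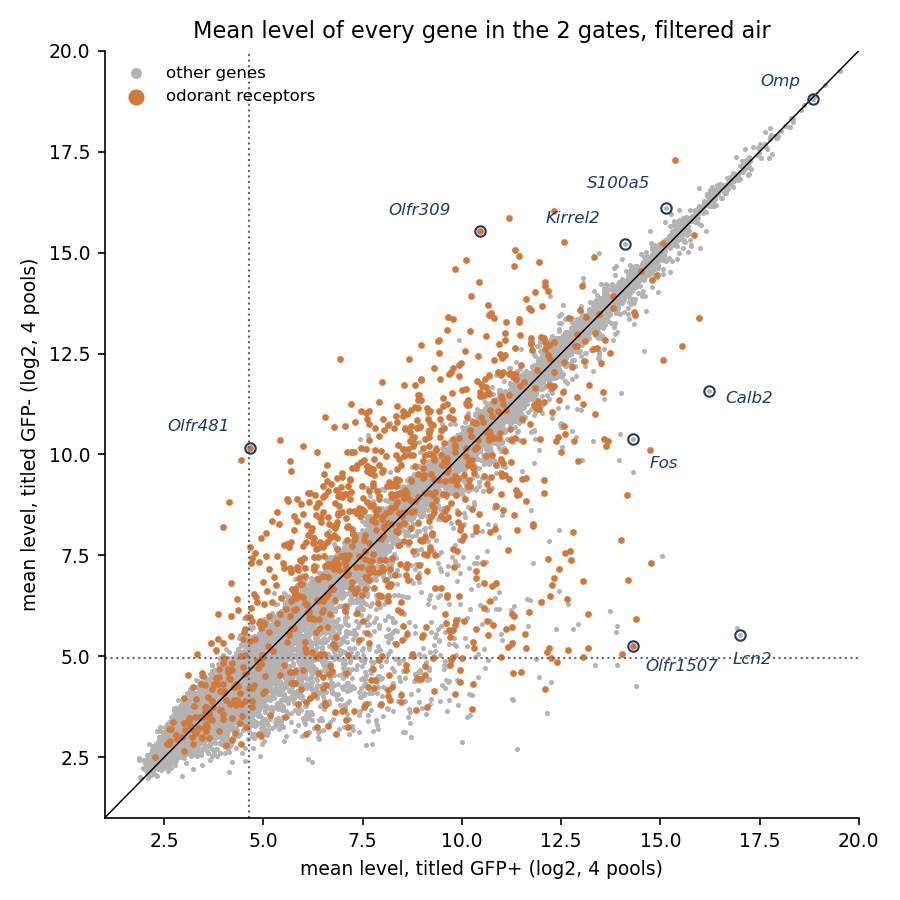
Mean log2 level over 4 filtered-air pools of every named gene in libraries titled GFP+ (horizontal axis) and titled GFP- (vertical axis), with odorant receptors in orange, the line of equal levels, and dotted lines at the background guides of 4.64 and 4.97. Odorant receptors spread to both sides of the line, from Olfr481 (10.16 against 4.67) to Olfr1507 (5.26 against 14.32), while most other genes far from the line lie below it, among them Lcn2 (5.53 against 17.02).

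Several neuronal genes linked to activity were higher. Of 8 measured members of that list 5 were higher and 0 lower, with a median difference of 1.02, against 6.23% of all genes higher and a median of 0.09. This list, like the others, was chosen with earlier results of these data known, so its counts are a description and not a test. On the spike-in scale 4 were higher and 1 lower, with a median of 0.66. S100a5, which the sort read, is one of the 5. Kirrel2, the adhesion molecule that sorts sensory axons by their activity, had levels of 14.60, 14.98, 16.11 and 15.15 in libraries titled GFP- and of 13.46, 13.98, 15.15 and 13.81 in those titled GFP+. Pool 3 was highest in both gates, so the gates overlapped although each pool had more Kirrel2 in its library titled GFP-. The mean difference was 1.11 ± 0.17 (SD, n = 4; limma adjusted p = 0.000134), and without the block for pools the adjusted p was 0.145 (adjusted p over the alternatives 3.46e-08 to 0.145). The leucine-rich repeat protein gene Lrrc3b differed by 1.71 ± 0.22, the calmodulin-binding protein gene Pcp4l1 by 1.52 ± 0.28 and the adhesion molecule Pcdh10 by 1.08 ± 0.28.

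Of 3 genes known from less active neurons 2 were lower, Calb2 and Kirrel3, and the other was not called, with a list median of -0.54. Calb2, which encodes the calcium-binding protein calretinin, had levels of 11.79, 11.56, 11.29 and 11.68 in libraries titled GFP- and of 16.27, 16.41, 16.0001 and 16.20 in those titled GFP+. The gates were far apart and the libraries of each gate lay close together, with a mean difference of -4.64 ± 0.17 (SD, n = 4; limma adjusted p = 2.35e-08). Kirrel3 differed by -0.54 ± 0.29 (limma adjusted p = 0.0242). That call was lost without the block for pools (adjusted p = 0.174), on the vehicle libraries alone (0.0663), with median centring (0.263) and without pool 2 (0.0631), pool 3 (0.0998) or pool 4 (0.108), and adjusted p over the alternatives ran from 0.00131 to 0.263. Of 15 axon sorting and guidance genes, a list that holds Kirrel2, Kirrel3 and Pcdh10 as well, 6 were higher and 2 lower, against 6.23% and 9.95% of all genes, with a median of 0.03. On the spike-in scale the balance turned, with 2 higher, 4 lower and a median of -0.33.

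Among the general genes of mature neurons none passed the test. Omp, the protein by which these neurons are usually recognised, had levels of 18.86, 18.89, 18.72 and 18.80 in libraries titled GFP- and of 18.85, 18.87, 18.81 and 18.84 in those titled GFP+, a difference of -0.02 ± 0.05 (SD, n = 4; limma adjusted p = 0.917). The highest value of each array was 19.38 to 19.58, so Omp lay near the top of the measurable range in both gates. Of 11 mature neuron genes, and likewise of 10 genes that mark epithelial zones, 0 passed in either direction, with medians of -0.00 and 0.08 (-0.36 and -0.28 on the spike-in scale). With each library centred on its median, 10 and 8 of them were called higher, since that scaling moves every difference upwards. Of 9 genes of the transduction cascade 1 was higher, the chloride channel Ano2 (0.44 ± 0.16, limma adjusted p = 0.0291), and the median was 0.11 (-0.25 on the spike-in scale). Over all genes 6.23% were higher and 9.95% lower. Ano2 did not pass on the vehicle libraries alone (adjusted p = 0.0818), on the spike-in scale (0.82) or without pool 1 (0.117), pool 2 (0.0776) or pool 4 (0.0909), and adjusted p over the alternatives ran from 9.1e-05 to 0.82.

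Some genes that shape the response and its transmission were called, with counts that moved with the scaling. Of 10 response termination genes 4 were higher and 2 lower (0 and 2 on the spike-in scale, 2 and 2 without pool 2, without the block for pools or on the vehicle libraries alone), led upwards by the calmodulin-dependent phosphodiesterase Pde1c (0.64 ± 0.10). Rgs2, a regulator of G-protein signalling that also serves in leukocytes, was lower by at least 6.43-fold: it was not above background in any library titled GFP- and had a mean of 7.57 in those titled GFP+. Of 14 ion channel genes 4 were higher and 0 lower (3 and 1 on the spike-in scale, 12 and 0 with median centring, 2 and 0 without the block), led by the potassium channel subunit Kcnmb3 (1.30 ± 0.14), and of 14 presynaptic genes 3 were higher, led by the synapsin Syn1 (0.64 ± 0.14). The presynaptic count was 0 on the spike-in scale, 12 with median centring, 2 without pool 1, 2 or 3 and 1 without pool 4. Over all genes 6.23% were higher and 9.95% lower. Pde1c and Syn1 were at 0.28 and 0.28 on the spike-in scale and did not pass there (adjusted p = 0.343 and 0.356).

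Immediate early genes were lower where S100a5 was higher. Of 25 members of the list 18 were lower and 0 higher, with a median of -1.48, against 9.95% of all genes lower (16 lower and 3 higher with median centring, 21 lower on the spike-in scale). Fos, the transcription factor gene most used to mark recent activity, had levels of 10.51, 10.77, 9.59 and 10.67 in libraries titled GFP- and of 14.08, 15.05, 13.998 and 14.15 in those titled GFP+. Every library titled GFP+ exceeded every library titled GFP- by more than 3 log2 units. The mean difference was -3.94 ± 0.48 (SD, n = 4; limma adjusted p = 2.08e-07). Egr2, a zinc finger transcription factor of the same response, had levels of 6.12, 5.37, 5.64 and 5.57 in libraries titled GFP- and of 12.13, 13.12, 13.07 and 12.88 in those titled GFP+, a difference of -7.13 ± 0.77 and the lowest of the list. Fosb, a family member of Fos, differed by -3.11 ± 0.72. Npas4, which responds to calcium entry in neurons, was not above background in any of the 8 libraries, with levels of 2.53 to 3.53. Markers of other cells moved with these genes: 16 of 17 neutrophil genes were lower, with a summed level of 8.27 to 9.40 in libraries titled GFP- and 17.75 to 18.93 in those titled GFP+, and 11 of 14 macrophage genes were lower, with 8.49 to 8.86 against 11.46 to 12.88. Their part in this result was not tested.

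The stretch before the start of Fos is shown because its control elements are the textbook example of an activity-responsive promoter, that of S100a5 because it stands for the reporter gene, and that of Lcn2 because this gene had the greatest difference between the gates. Each is the 250 bases before the annotated start from RefSeq (GRCm38.p6), 5′ to 3′ on the gene's strand, with matches to the searched motifs in capitals. Fos lies at chr12:85473640-85473889 on the plus strand, with the cyclic AMP response half-site TGACG starting 129 and 66 bases before the start and TATAAA 33 bases before it. Lcn2 lies at chr2:32387740-32387989 on the minus strand, with the C/EBP motif TTGCNNAA 216 bases before the start. S100a5 lies at chr3:90608272-90608521 on the plus strand, with no match.
Fos: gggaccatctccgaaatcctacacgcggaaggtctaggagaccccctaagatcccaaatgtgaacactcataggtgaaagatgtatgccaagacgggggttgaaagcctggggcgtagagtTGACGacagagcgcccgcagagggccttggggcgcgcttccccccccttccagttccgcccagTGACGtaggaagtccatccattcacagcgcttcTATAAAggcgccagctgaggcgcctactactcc
Lcn2: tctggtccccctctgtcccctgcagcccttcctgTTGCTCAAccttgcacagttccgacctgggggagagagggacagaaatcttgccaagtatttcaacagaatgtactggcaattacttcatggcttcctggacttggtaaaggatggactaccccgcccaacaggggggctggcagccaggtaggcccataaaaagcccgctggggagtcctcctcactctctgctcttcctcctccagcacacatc
S100a5: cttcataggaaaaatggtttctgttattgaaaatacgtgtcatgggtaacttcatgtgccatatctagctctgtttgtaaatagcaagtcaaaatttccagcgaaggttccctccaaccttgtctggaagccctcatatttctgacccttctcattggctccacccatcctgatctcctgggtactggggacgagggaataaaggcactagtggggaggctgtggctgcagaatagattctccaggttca

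Promoters of 250 bases before to 50 after the start were at hand for 15691 of the measured genes and were searched for 7 motifs. The half-site TGACG, on either strand and including its place within the full element TGACGTCA, was in 24.7% of all promoters and in 13 of 20 immediate early genes (65.0%). The full element was in 2.42% of all and in 2 of those 20. TTGCNNAA was in 10.1% of all and in 6 of 15 neutrophil genes, and the PU.1 motif GAGGAAGT in 3.03% of all and in 5 of the same 15. Outside the odorant receptors, GAGGAAGT was in 6.18% of 1326 promoters of genes called lower and in 1.54% of 650 promoters of genes called higher. In the same sets, lower first, TTGCNNAA was in 10.3% and 6.77%, TGACG in 22.2% and 27.5% and TGACGTCA in 2.11% and 2.92%. TGANTCA, the AP-1 motif, was in 7.27% of all promoters and in 0 of the immediate early and 0 of the neutrophil ones, and the palindromic EBF motif in 0.981%, with 0 in either list. TATAAA, read on the gene's strand only, was in 8.73% of all, in 2 of the 20 and in 3 of the 15. In the called sets, again lower first, TGANTCA was in 7.16% and 6.46%, TATAAA in 10.4% and 8.46% and the EBF motif in 0.679% and 1.23%. The matches describe these windows and were not tested.

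Genes listed for the younger stages of the neuronal lineage were lower in libraries titled GFP-. Of 14 immature neuron genes 9 were lower and 0 higher, against 9.95% and 6.23% of all genes, with a median of -0.71. With median centring 7 were lower and 1 higher, with a median of -0.35. Gap43, a growth cone protein, had levels of 6.20, 6.65, 5.83 and 6.51 in libraries titled GFP- and of 9.25, 9.42, 8.92 and 9.01 in those titled GFP+, a difference of -2.85 ± 0.28 (SD, n = 4; limma adjusted p = 2.58e-07). The G-protein subunit gene Gng8 differed by -4.72 ± 0.42 and Dpysl3, which encodes a cytoskeletal regulator of growing neurites, by -4.48 ± 0.60. Cxcr4, the chemokine receptor of migrating young neurons and also of leukocytes, was lower by at least 16.4-fold, being below background in all libraries titled GFP-. Of 8 neurogenic progenitor genes 7 were lower, among them the transcription factor Sox2 (-1.70 ± 0.49) and the receptor tyrosine kinase Kit, lower by at least 9.57-fold. Of 11 cell cycle genes, which are not particular to this lineage, 10 were lower. Which cells the progenitor and cell cycle genes came from was not tested. Mki67, the proliferation marker, had levels of 3.56 to 4.53 in libraries titled GFP-, all below background, and of 9.14 to 10.02 in those titled GFP+, so that it was lower by at least 25.9-fold (limma adjusted p = 5.44e-08). All 6 genes of horizontal basal cells, the reserve stem cells, lay below background in both gates, and 0 differed.

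Genes of supporting cells were lower as well. Of 13 sustentacular genes 8 were lower and 0 higher, against 9.95% and 6.23% of all genes, with a median of -1.14. Cyp2g1, a cytochrome P450 of these cells, had levels of 12.56, 11.63, 12.54 and 13.54 in libraries titled GFP- and of 14.68, 14.50, 14.46 and 14.71 in those titled GFP+. The libraries titled GFP+ stayed close together, whereas the libraries titled GFP- were spread out, with pool 4 highest and pool 2 lowest. The difference was -2.02 ± 0.70 (SD, n = 4; limma adjusted p = 0.000269), Cyp2a5, another P450 with pool 4 highest and pool 2 lowest in libraries titled GFP-, differed by -2.48 ± 0.57, and the sulfotransferase Sult1c1 differed by -3.57 ± 0.54. Of 9 genes of Bowman's glands, which secrete the mucus, 3 were lower and 1 higher. The gene called higher is among 5 of the 9 that lay below background in both gates. With dim genes left out, 3 of 4 were lower and 0 higher. Sox9, a transcription factor of gland cells, differed by -4.88 ± 1.02. The summed level of the sustentacular list (the log2 of the summed linear values) was 12.83 to 14.43 in libraries titled GFP- and 15.41 to 15.78 in those titled GFP+.

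Genes of both kinds of microvillar cell were lower in libraries titled GFP-. Of 14 tuft-like genes 13 were lower, with a median of -2.43, and of 9 ionocyte-like genes all 9, with a median of -3.27. Over all genes 9.95% were lower. In libraries titled GFP-, 11 of the 14 and 4 of the 9 had a mean below background, which limits the size of the falls. Trpm5, the cation channel of tuft cells, had levels of 4.40, 4.95, 4.88 and 4.64 in libraries titled GFP- and of 8.29, 9.51, 9.78 and 9.12 in those titled GFP+, a difference of -4.46 ± 0.42 (SD, n = 4; limma adjusted p = 1.04e-06). Its library titled GFP- was below background in 3 of 4 pools. Pou2f3, the transcription factor that specifies tuft cells, differed by -2.92 ± 0.44, and Alox5, a lipoxygenase of tuft cells and leukocytes, was lower by at least 12.3-fold. Foxi1, the master transcription factor of ionocytes, differed by -5.35 ± 1.05, the chloride channel Cftr by -3.85 ± 0.36 and the adhesion protein Hepacam2 by -5.99 ± 0.41. Ascl3, another transcription factor of these cells, varied most between pools among all genes named here. Its levels in libraries titled GFP+ were 5.71, 5.96, 8.67 and 8.11 and those titled GFP- lay at 3.99 to 4.76, all below background, so it was lower by at least 4.67-fold.

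Neutrophil genes included the largest differences of the array. Of 17 measured members 16 were lower and 0 higher, against 9.95% and 6.23% of all genes, with a median of -7.33. Of the 17, 13 had a mean below background in libraries titled GFP-. Lcn2, a granule protein that binds bacterial iron carriers, had levels of 4.01, 5.36, 5.69 and 7.05 in libraries titled GFP- and of 16.41, 17.47, 17.12 and 17.08 in those titled GFP+. The library titled GFP- of pool 1 lay below background and that of pool 4 was highest, while the 4 libraries titled GFP+ were close to each other. The mean difference was -11.49 ± 1.06 (SD, n = 4; limma adjusted p = 1.3e-08). Ngp, another granule protein, was at 4.66, 5.82, 5.57 and 6.79 in the libraries titled GFP-, the same pools being lowest and highest, and differed by -11.22 ± 0.70. The granule peptide gene Camp was below background in every library titled GFP- and lower by at least 32.4-fold.

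Genes listed for other blood-borne cells were lower too, with smaller list medians. In libraries titled GFP-, 8 of 14 macrophage and 9 of 11 lymphocyte genes had a mean below background. Of these, 2 macrophage and 4 lymphocyte genes lay below it in both gates. Background therefore limits the falls, and the list medians cannot be ranked by size against that of the neutrophil genes. Which cells these genes came from was not tested. Of 14 macrophage genes 11 were lower (median -1.84), with the growth factor receptor Csf1r at -3.40 ± 1.00, the antibody receptor chain Fcer1g at -5.38 ± 0.82 and the complement gene C1qb lower by at least 2.77-fold. Of 11 lymphocyte genes 7 were lower (median -0.95), with Ptprc, the marker of all leukocytes, at -4.20 ± 0.40 and the B-cell receptor chain Cd79a lower by at least 4.91-fold. Of 4 erythroid genes 2 were lower, with the anion exchanger Slc4a1 of red cells at -2.29 ± 0.52. Of 8 endothelial genes 0 passed, and 7 lay below background in both gates. Of 5 stromal genes 1 was lower, and of 6 ensheathing glia genes 1, the lipid carrier Apoe, which macrophages also express (-2.97 ± 0.68). Of 7 heat shock genes 4 were lower, but 1 without the block for pools, against 9.95% of all genes. In the 7-gene list for sensory neurons that use guanylyl cyclase D, 3 were lower, and Pde2a, a phosphodiesterase, differed by -3.62 ± 0.69.

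**Figure D3:**
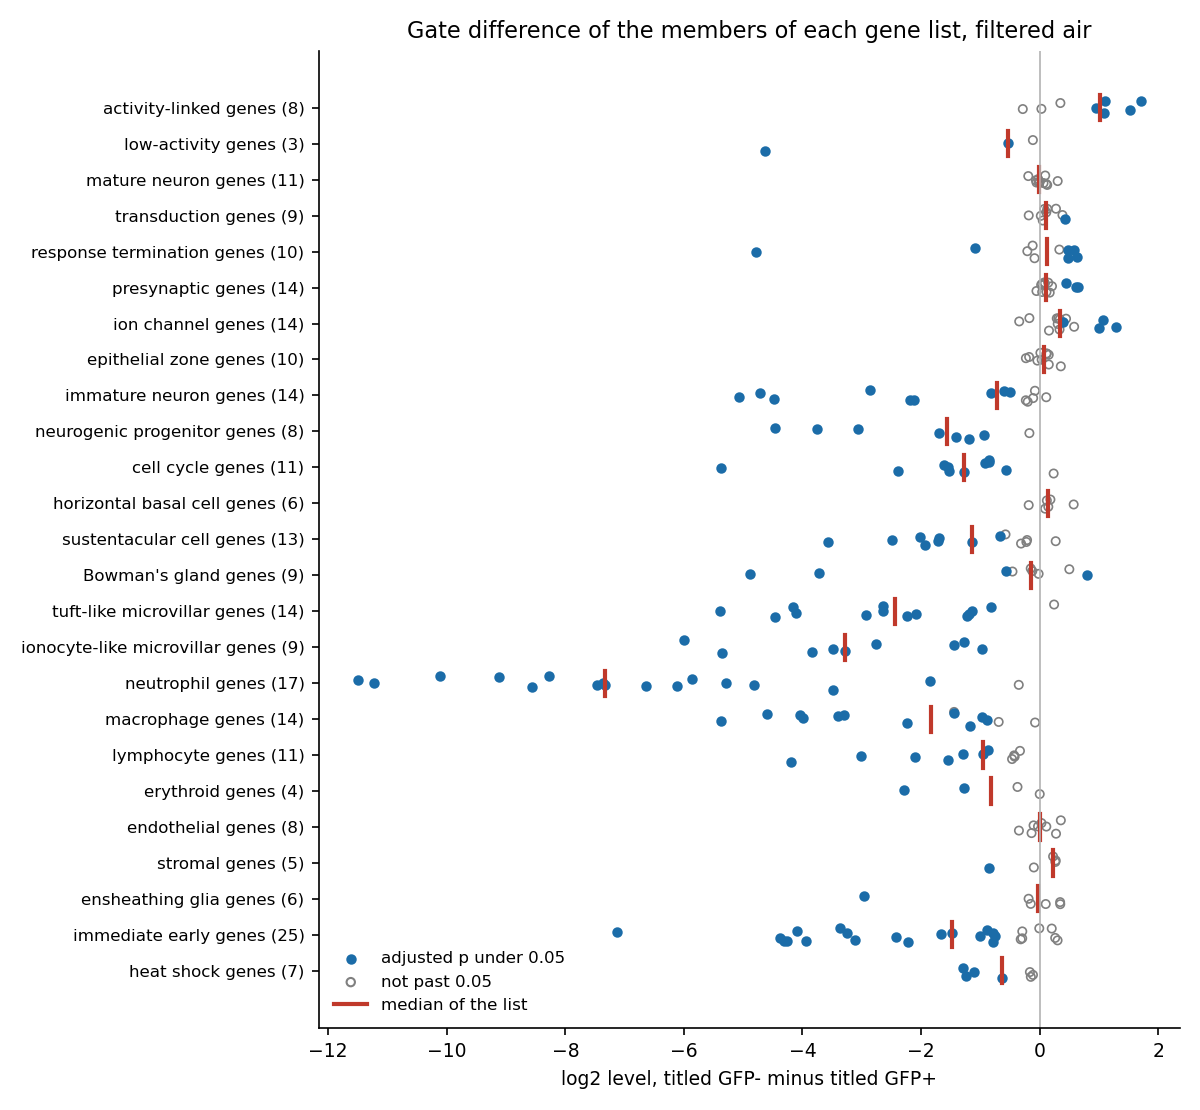
Gate difference (log2 level, titled GFP- minus titled GFP+, mean of 4 filtered-air pools) of each member of 25 gene lists, with the number of measured members in brackets, filled points for an adjusted p under 0.05 and red bars at list medians. Neutrophil genes reach -11.49 with a median of -7.33, the immediate early genes spread from -7.13 to 0.30, the mature neuron genes lie within -0.19 to 0.31, and the activity-linked genes have a median of 1.02. On the spike-in scale all points move down by about 0.36, which takes medians that lie near 0 below it.

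Outside the lists and the chemoreceptors, the 12 largest falls with both gates above background were all over 5 log2 units. Among them were the lysozyme Lyz2 (-8.16), the transcription factor Spi1 (-7.60), the surface protein Ly6e (-7.56), the interferon-induced proteins Ifitm2 (-7.13) and Ifitm6 (-5.62), the calcium-binding protein S100a11 (-6.70), the oxidase subunits Cybb (-6.39) and Ncf1 (-5.43), the intermediate filament Vim (-5.93), the lysosomal protein Laptm5 (-5.82) and the G-protein subunit Gnai2 (-5.67). Spi1, which encodes PU.1, had levels of 5.65, 6.15, 5.99 and 6.70 in libraries titled GFP- and of 12.96, 14.36, 13.92 and 13.66 in those titled GFP+, with pool 1 lowest and pool 4 highest in libraries titled GFP-.

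The 12 largest rises by the same rule were smaller and of mixed function. Fxyd2, a regulator of the sodium pump, had levels of 10.33, 9.81, 10.29 and 11.12 in libraries titled GFP- and of 7.22, 7.37, 7.74 and 7.42 in those titled GFP+. The gates were separated in every pool, by 2.95 ± 0.58 on average (SD, n = 4; limma adjusted p = 0.000111). The glycosyltransferase Galnt15 differed by 1.66 ± 0.18, Caly, a vesicle protein that binds a dopamine receptor, by 1.56 ± 0.37, and the heparan sulfate sulfotransferase Hs3st1 by 1.48 ± 0.12. Cyp26b1, the enzyme that breaks down retinoic acid, differed by 1.44 ± 0.46, the transcription factor Rfx4 by 1.39 ± 0.31 and the neuropeptide gene Avp by 1.38 ± 0.29. The remaining rises were Pde10a, a cyclic nucleotide phosphodiesterase (1.29 ± 0.73, adjusted p = 0.0534 without pool 2 and 0.00222 to 0.0534 over the alternatives), Ptprn, a protein of dense-core vesicles (1.28 ± 0.41), Fam174b (1.26 ± 0.32), the lipid droplet protein Cidea (1.24 ± 0.50) and the synaptic vesicle protein Syngr1 (1.21 ± 0.23).

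Among genes used by all cells, those of the ribosome were lower. Of 72 cytoplasmic ribosomal protein genes 41 (56.9%, against 9.95% of all genes) were lower and 1 higher, with a median of -0.56, while 1 of 93 respiratory chain genes was lower and 2 were higher, with a median of 0.02. Rps16 had the lowest difference of the ribosomal list (-1.31 ± 0.31). The ribosomal median was -0.20 with median centring, where 17 were lower, and -0.92 on the spike-in scale, where 55 were lower. Without pool 1 and without pool 4 the count of lower genes was 24. The 4 pools had ribosomal medians of -0.79, -0.45, -0.29 and -0.74. The respiratory chain median turned to -0.34 on the spike-in scale.

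Odorant receptors went both ways and, by percentiles and SD, spread far more widely than other genes. The largest falls were of other genes, down to -11.49 for Lcn2. Of 1091 receptors 388 (35.6%) were higher and 298 (27.3%) lower, against 6.23% and 9.95% of all genes, and 405 were not called. With dim genes left out, 391 of 994 receptors were higher and 293 lower, against 1240 and 1828 of all 12351 genes. Their differences ran from -9.05 to 5.49 with a median of 0.24 (-0.12 on the spike-in scale), and their 5th and 95th percentiles were -4.75 and 2.91, against -1.15 and 0.55 for the other genes. The SD of the mean difference across genes was 2.28 for receptors and 0.73 for others, while the median SD between pools was 0.60 and 0.31. The pools gave the receptors nearly the same places, with Pearson correlations of 0.888 to 0.944 between pools as a description over receptors that share the libraries. Of the 1091, 886 had mean levels above background in both gates, 88 lay below it only in libraries titled GFP-, 20 only in those titled GFP+ and 97 in both. Counts moved with scaling: 537 were higher and 273 lower with median centring, 425 and 291 after quantile normalization, and 328 and 382 on the spike-in scale. Cross-hybridisation between receptors of like sequence was not tested.

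**Figure D4:**
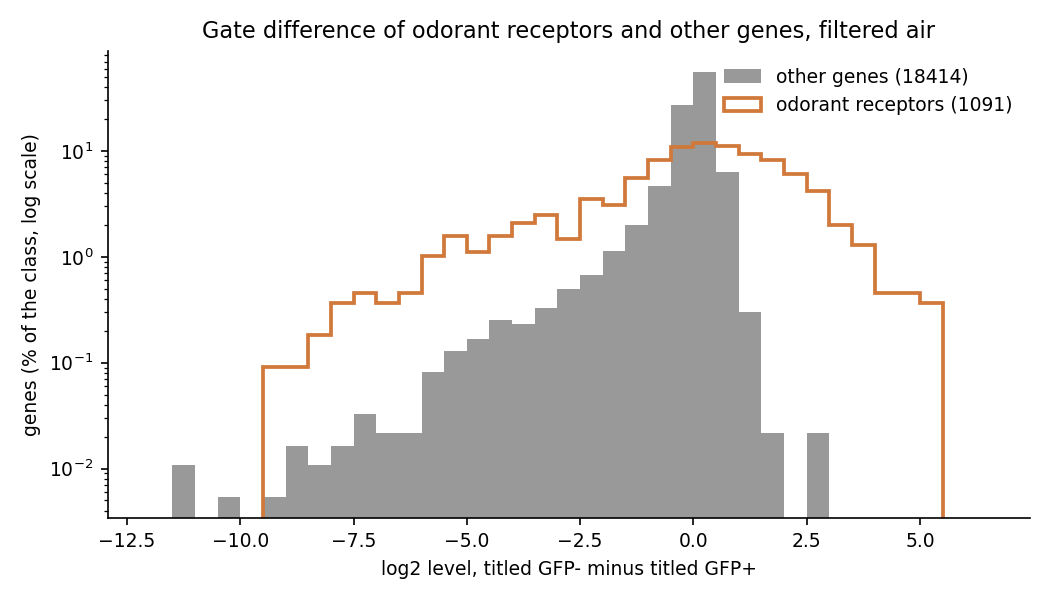
Share of each class of genes (percent, logarithmic vertical axis) by gate difference (log2 level, titled GFP- minus titled GFP+, bins of 0.5), for odorant receptors (orange outline) and all other named genes (grey). The receptors reach 5.49 upwards, where other genes end at 2.95, and spread from -4.75 to 2.91 between their 5th and 95th percentiles against -1.15 to 0.55 for other genes. Downwards the receptors end at -9.05 and other genes at -11.49.

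The receptors highest in libraries titled GFP- were raised in every pool. Olfr309 had levels of 15.94, 15.62, 15.35 and 15.21 in libraries titled GFP- and of 10.52, 10.21, 10.05 and 11.03 in those titled GFP+. The gates lay about 5 log2 units apart, with the smallest gap in pool 4, and the mean difference was 5.08 ± 0.60 (SD, n = 4; limma adjusted p = 1.41e-07). Olfr110 was at 12.22, 12.23, 12.40 and 12.57 against 6.87, 7.42, 6.71 and 6.74, a difference of 5.42 ± 0.46. Olfr481 was at 10.22, 10.53, 10.14 and 9.75 against 5.53, 4.66, 4.67 and 3.83, the last of which lay below background, and its difference of 5.49 ± 0.57 was the highest of any gene. The others among the 10 highest with both means above background were Olfr494 (4.94), Olfr536 (4.76), Olfr533 (4.70), Olfr522 (4.65), Olfr101 (4.37), Olfr1093 (4.22) and Olfr490 (4.18).

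The receptors with the largest falls included some close to background in libraries titled GFP-. Olfr1507, also known as MOR28, had levels of 5.12, 5.23, 4.41 and 6.28 in libraries titled GFP- and of 14.39, 14.48, 13.93 and 14.45 in those titled GFP+. In libraries titled GFP-, pool 3 lay below background and pool 4 was highest, and the mean difference was -9.05 ± 0.60 (SD, n = 4; limma adjusted p = 6.32e-09). Olfr1213 was at 6.11, 4.41, 4.04 and 5.63 against 14.10, 13.997, 13.69 and 14.36, a difference of -8.99 ± 0.79. No library titled GFP- came near any library titled GFP+ for either receptor. The others among the 10 lowest with both means above background were Olfr99 (-8.46), Olfr460 (-8.07), Olfr1384 (-7.96), Olfr728 (-7.52), Olfr393 (-7.47), Olfr1297 (-7.29), Olfr1447 (-7.14) and Olfr1140 (-7.02).

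**Figure D5:**
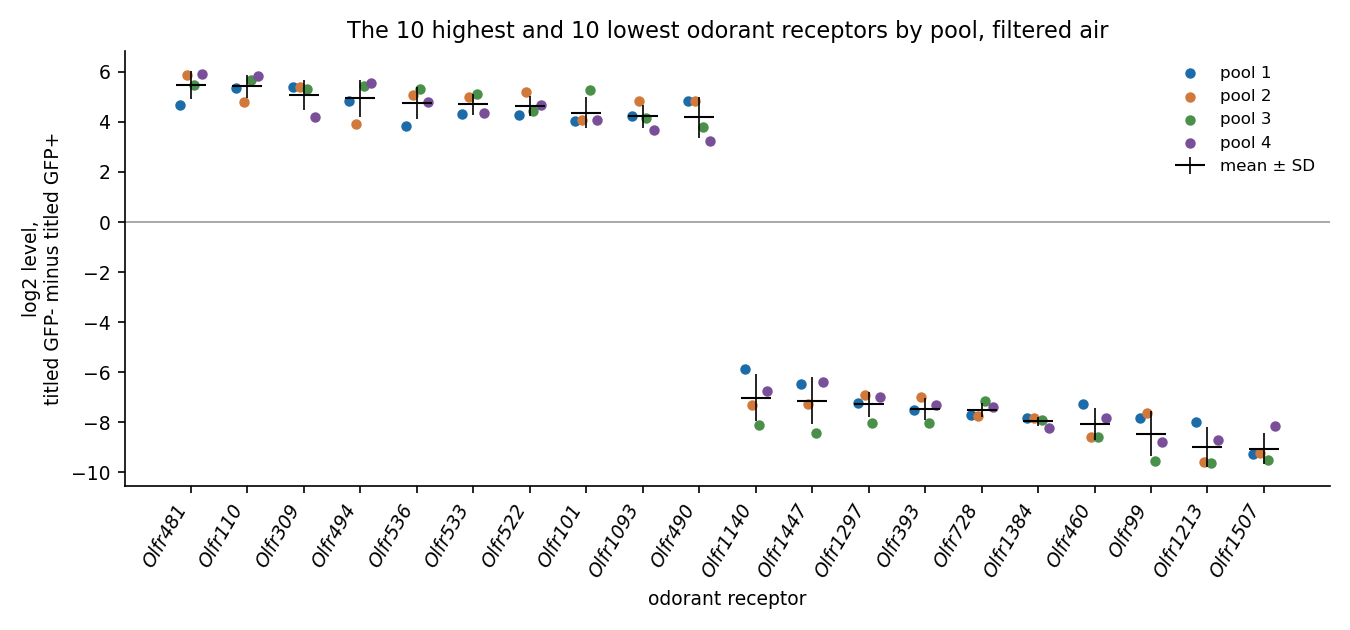
Gate difference (log2 level, titled GFP- minus titled GFP+) of the 10 highest and 10 lowest odorant receptors with both means above background, with a point for each filtered-air pool and the mean ± SD over 4 pools in black. Every point of the highest 10 lies above 3 and every point of the lowest 10 below -5.

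Neighbouring receptor genes were called in the same direction more often than in opposite directions, but some neighbours lay far apart. Receptors were put in order along each chromosome by the reference gene table (GRCm38.p6), which gave 1074 neighbouring pairs whose differences had a Pearson correlation of 0.164, as a description. Both members were called in 425 pairs, in the same direction in 280 and in opposite directions in 145 (34.1%). Of all receptors 388 were higher and 298 lower. The share of like pairs that these counts alone would give was not worked out. Neighbours were paired whatever the distance between them. Olfr1506 and Olfr1565, which had the same values in every pool, were counted separately. The widest gap was between Olfr99 and Olfr101, which follow each other among the measured receptors of chromosome 17. Olfr99 had levels of 6.04, 6.69, 5.43 and 5.54 in libraries titled GFP- and of 13.88, 14.34, 14.98 and 14.32 in those titled GFP+. Olfr101 had the reverse, with 10.88, 11.16, 11.06 and 10.63 against 6.82, 7.09, 5.78 and 6.56. Over all 1091 receptors, 35.6% were higher and 27.3% lower (median 0.24). Chromosome 2, which held the most receptors, lay near this, with 105 of 284 higher (37.0%) and 71 lower (median 0.23). Among chromosomes with uneven counts, 22 of the 39 receptors on chromosome 14 were higher (56.4%) and 9 lower (23.1%, median 1.44). On chromosome 16, 20 of the 36 were higher (55.6%) and 8 lower (22.2%, median 0.94). On chromosome 10, by contrast, 11 of 65 were higher (16.9%) and 28 lower (43.1%, median -0.56). On chromosome 6, 2 of 27 were higher (7.41%) and 12 lower (44.4%, median -0.34). Counts were uneven on larger sets too, with 91 of 232 higher and 47 lower on chromosome 7 and 58 of 132 higher and 28 lower on chromosome 9. Chromosomes 11 and 17 each had 38.8% lower. The chromosomes named were chosen after their values were seen. These chromosome counts were not tested, since receptors of a cluster share their neighbours and probes.

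Trace amine receptors, a second family of olfactory receptors that detect amines, also split. Of 15 measured genes 7 were higher and 4 lower, against 6.23% and 9.95% of all genes, with a median of 0.64. Taar9 had levels of 13.79, 12.99, 11.91 and 12.63 in libraries titled GFP- and of 11.16, 10.15, 9.16 and 9.29 in those titled GFP+, a difference of 2.89 ± 0.31 (SD, n = 4; limma adjusted p = 8.82e-07). Pool 1 was highest in both gates, and each pool was higher in its library titled GFP-. Taar3 differed by 2.58 ± 0.74. Taar2 went the other way, at 5.34, 6.56, 7.03 and 6.92 against 9.88, 9.61, 8.92 and 9.15, a difference of -2.93 ± 1.18 that was widest in pool 1. Of 319 vomeronasal receptors 15 (4.70%, against 6.23% of all genes) were higher and 0 lower, with 197 higher under median centring and 1 higher and 5 lower on the spike-in scale. They define the background guide, so nearly all lie below it by construction.

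The bourgeonal pools were set beside the filtered-air pools with the same contrast. The difference between odor and vehicle pools in the gate difference passed for 0 of 19505 genes (0%; limma, smallest adjusted p = 0.172). On the spike-in scale it passed for 1 gene. An unadjusted limma p under 0.05 was reached by 1109 of the 19505. Chance alone would put a share of about 0.05 of all genes there, so this count is not read as an odor effect. Of the 3156 genes called in filtered air, 3062 (97.0%) had the same direction in the odor means, 2337 were called there in that direction and 94 had the opposite sign. The gate differences in odor were 1.09 for S100a5, 1.00 for Kirrel2, -4.14 for Fos and -11.71 for Lcn2. None of these 4 differed between treatments past the threshold, which does not show that the treatments were alike.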

How the data were processed

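The deposited values are log2 levels per probe set of Clariom S arrays, which the authors made in Affymetrix Expression Console, as the submitters' processing notes state. The software version, how probes were summarised and the build used: not given in the sources used here. Of 28846 probe sets, 19572 named 1 gene in the platform annotation, whose symbols can be old. Where a gene had several, the one with the highest mean was kept, which left 19505 genes. Values were used as deposited.

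A linear model was fitted to all 16 libraries with limma 3.58.1 in R 4.3.3 (lmFit, eBayes). It had 1 term per pool, as the block, and 1 gate term for each treatment. P-values were adjusted by Benjamini-Hochberg over all genes, with a threshold of 0.05. Replicate numbers were taken to pair the libraries because the deviations of libraries with the same number from their group means correlated at 0.098 to 0.201, against -0.152 to 0.075 for different numbers, and because the mouse and library numbers imply shared pools; 1 of the pairs falls just short of 0.1. The labels do not say more about the pools, so p-values measure the spread between these samples. A library's background guide is the 95th percentile of its vomeronasal receptor genes. Where a gene lay below it in every library of a gate, the fold is given as "at least", computed from the higher of that guide and the gene's own level in each library. The 4 arrays per gate limit the precision.

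Genes named are 6 markers, the first 3 measured members and the highest and lowest member of each role list, the 5 of these that varied most between pools, the 12 largest rises and falls outside the lists and the 10 highest and lowest odorant receptors with both means above background. The members and lists were chosen with earlier results of these data known. Scripts were tested on simulated data. Alternatives were other scalings, fits, filters and leaving out each pool.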

Additional observations from a re-analysis of the deposited data

Results flagged for a closer look

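In 5 of the 94 named genes tested the difference of 1 pool stood apart from those of the other 3 by Dixon's criterion, which chance meets in about 1 of 20 groups of 4. The difference of C1qb was -3.34 in pool 3 and -1.97 to -1.70 in the others. Olfr309 was at 4.18 in pool 4 and at 5.31 to 5.42 in the others. Olfr101 was at 5.29 in pool 3 and at 4.06 to 4.07 in the others. Olfr1384 was at -8.23 in pool 4 and at -7.91 to -7.85 in the others. Eif2s3y was at 0.74 in pool 4, where both its libraries lay below background, and at 0.02 to 0.11 in the others.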

How the results depend on the processing

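The scaling of the libraries moved the counts most. With each library centred on its median, 12023 genes were called, 10501 of them higher. Quantile normalization called 2136 genes higher. Scaling on the poly-A spike-ins, chosen after seeing the data, called 384 higher and 3170 lower and gave 1 gene that differed between odor and vehicle. Leaving out each pool in turn gave 777 to 935 genes higher. Without the replicate block 2786 genes were called, and Kirrel2 stayed at 1.11 but did not pass (adjusted p = 0.145). The numbers share pools by inference only. On the spike-in scale S100a5 was 0.59 (adjusted p = 0.0533). Differences near 0 changed sign: Omp was 0.33 with median centring and 0.0253 after quantile normalization, and on the spike-in scale Npas4 was -0.0553 and Eif2s3y -0.14. The causes were not tested. Fos and Lcn2 kept direction and call under all 12 alternatives. Signals below background limit the falls to lower bounds.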
